A study of Mus musculus with 3 samples.

Results

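Selenoproteins are proteins that carry selenocysteine, an amino acid with selenium in place of the sulphur of cysteine. The group described here was defined by gene symbol: of 10 names (Sepp1, Gpx1, Gpx3, Gpx4, Sepw1, Selk, Selt, Sepx1, Txnrd1 and Sephs2, in the older nomenclature), 9 matched a row of the expression table, out of 14811 listed genes. The tenth, Sepx1, stands in the table under its newer symbol Msrb1 and is described with the other selenoprotein genes. The group was put together because Sepp1 was among the 20 most abundant transcripts outside mitochondrial and ribosomal protein genes, so its level is a description and supports nothing further. The data were RNA-seq libraries of macrophages sorted by flow cytometry from the kidneys of 3 C57BL/6J mice, named as separate animals, which made up a single group. Each animal had received phosphate-buffered saline intravenously, and kidneys were taken 1 h later. The labels give neither the markers used in the sort nor the age of the animals. With a single group there was no contrast between conditions, and no test is given: an exact two-sided sign-flip test over 3 mice cannot reach a p below 0.25.

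Selenocysteine is encoded by UGA, which otherwise stops translation. A hairpin in the 3′ untranslated region of the mRNA, the SECIS element, recruits the binding protein SECISBP2 and the elongation factor EEFSEC, which deliver a dedicated tRNA to the UGA. Many selenoproteins are redox enzymes with selenocysteine in the active site: glutathione peroxidases reduce peroxides, and thioredoxin reductases recharge thioredoxin. Selenoprotein P, encoded by Sepp1, is secreted and carries selenium between tissues. When selenium is scarce, an unread UGA upstream of an exon junction can expose an mRNA to nonsense-mediated decay, and Gpx1 is known as a sensitive transcript.

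The coding sequences show where the UGA lies in each member, and these windows are printed because the UGA defines the group. Sequences were read from GENCODE M21 transcripts (build GRCm38, sense strand, 5′ to 3′), with up to 5 codons on each side, in lower case with the selenocysteine codon in capitals (TGA in DNA letters).
Gpx1: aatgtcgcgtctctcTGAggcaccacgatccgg
Gpx3: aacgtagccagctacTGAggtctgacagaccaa
Gpx4: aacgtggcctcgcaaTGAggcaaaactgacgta
Sepw1: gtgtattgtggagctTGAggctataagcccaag
Selt: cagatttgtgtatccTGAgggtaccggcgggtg
Sephs2: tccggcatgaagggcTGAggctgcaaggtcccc
Selk: ccaatggctggtggaTGAggaaggtaa
Txnrd1: ctccagtctggctgcTGAggttaa
Sepp1, first of its selenocysteine codons: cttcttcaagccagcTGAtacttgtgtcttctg

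In 8 of 9 members the first TGA was followed by G, and Sepp1, with T, was the exception. The windows of the 3 glutathione peroxidases shared 16 of 33 bases between Gpx1 and Gpx3, 19 between Gpx1 and Gpx4, and 20 between Gpx3 and Gpx4. In Selk and Txnrd1 the windows run into the stop codon, because their selenocysteine codons lie near the end, at codon 92 of 95 and codon 498 of 500, stop codon included. In Sepw1 the codon lies near the start, at codon 13 of 89. Of the 9 members, 6 had the first TGA more than 50 bases upstream of the last exon junction of the transcript used. The exceptions were Sephs2, which has a single exon, Txnrd1, whose TGA lies 63 bases past the last junction, and Selk, whose TGA lies 5 bases before it. In Gpx1 the distance was 105 bases and in Gpx4 342 bases.

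Sepp1 has 10 selenocysteine codons, and each of the other members has 1. The stretch below, from codon 313 to the stop codon at codon 381, holds 7 of the 10 and is shown because it sets Sepp1 apart in coding capacity.
Sepp1, codons 313 to 381: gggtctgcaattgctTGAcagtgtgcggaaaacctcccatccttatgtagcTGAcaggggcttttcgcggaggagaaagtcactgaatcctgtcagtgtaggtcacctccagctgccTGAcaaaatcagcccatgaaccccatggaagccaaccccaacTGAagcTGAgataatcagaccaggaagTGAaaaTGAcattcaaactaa
The base after TGA was C in 5 of the 10 codons, A in 2, G in 2 and T in 1. The open reading frame ends in TAA. Sepw1 and Sephs2 were the 2 members of 9 whose reading frame ends in TGA itself, so the same triplet is read there both as selenocysteine and as stop.

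**Figure D1:**
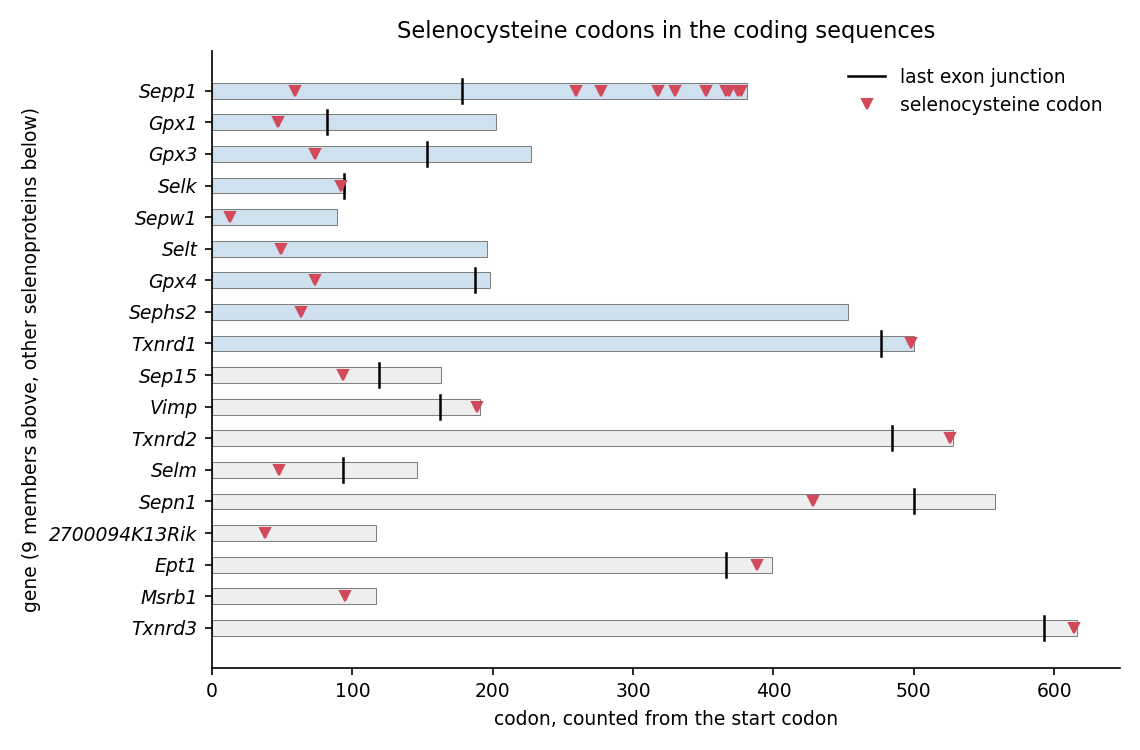
Coding sequences of the 9 members (blue bars) and 9 other selenoprotein genes of the table (grey bars), drawn to scale with codons counted from the start codon on the horizontal axis. Triangles mark selenocysteine codons and black ticks the last exon junction where it falls within the coding sequence. Sepp1 alone among these 18 genes has more than 1 such codon, and most of its 10 lie past the last junction.

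The libraries held 50646558 to 56718534 reads over the listed genes. Levels are normalised reads, the authors' counts divided by a size factor for each library, and they are given for mice 1, 2 and 3 in that order or as mean ± SD over n = 3 mice. Of 12 macrophage markers, 11 reached 1000 in all mice, and the summed level was 943376, 680192 and 870095. Itgam, at 1021, 446 and 5.64, was the exception. RNA typical of kidney tubule was also present: the summed level of 11 proximal tubule markers was 67299.96, 232207 and 34691. Of the 11, 10 were highest in mouse 2. How often listed genes in general were highest in mouse 2 is not given here, so this count is a description only. Kap, an abundant proximal tubule transcript, was at 35490.3, 172061 and 13511, while Slc5a2 was at 0 in mouse 3. Markers of thick limb and distal tubule summed to 296, 6092 and 1145, and those of collecting duct to 24.2, 1811 and 4.93. The endothelial markers summed to 534, 133 and 1387, the podocyte markers to 35.5, 258 and 415, and the fibroblast and mural markers to 952, 130 and 194. The marker lists of T and NK cells, of neutrophils and of red blood cells each summed to at most 413 in any mouse. These sums rest on 2 of 5, 2 of 5 and 3 of 7 markers, since the others were not among the listed genes. The NK cell genes Nkg7 and Ncr1 were among those missing, so low sums do not show that these cells were absent. Cd3e, S100a9 and Hba-a1 were at 0 throughout, as was the dendritic cell gene Cd209a. The B cell gene Cd79b was at 227, 3939.8 and 6359, and Clec9a, also of dendritic cells, at 3421, 1330.3 and 1462, and their part in the values below was not tested. In such bulk samples, fewer cells of a type and less RNA per cell cannot be told apart.

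Every mouse had a level of at least 10 for all 9 members, which 44.4% of all listed genes reached, and of at least 1000 for 7 members, which 14.7% reached. The exceptions to the higher level were Txnrd1 and Sephs2. The median over the members of the mean log2(normalised reads + 1) was 12.35, beside 5.98 over all listed genes. Together the members took 0.561%, 1.05% and 0.548% of all reads (0.718% ± 0.284, n = 3). Mouse 2 thus had the largest share, and without it the mean was 0.555%.

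**Figure D2:**
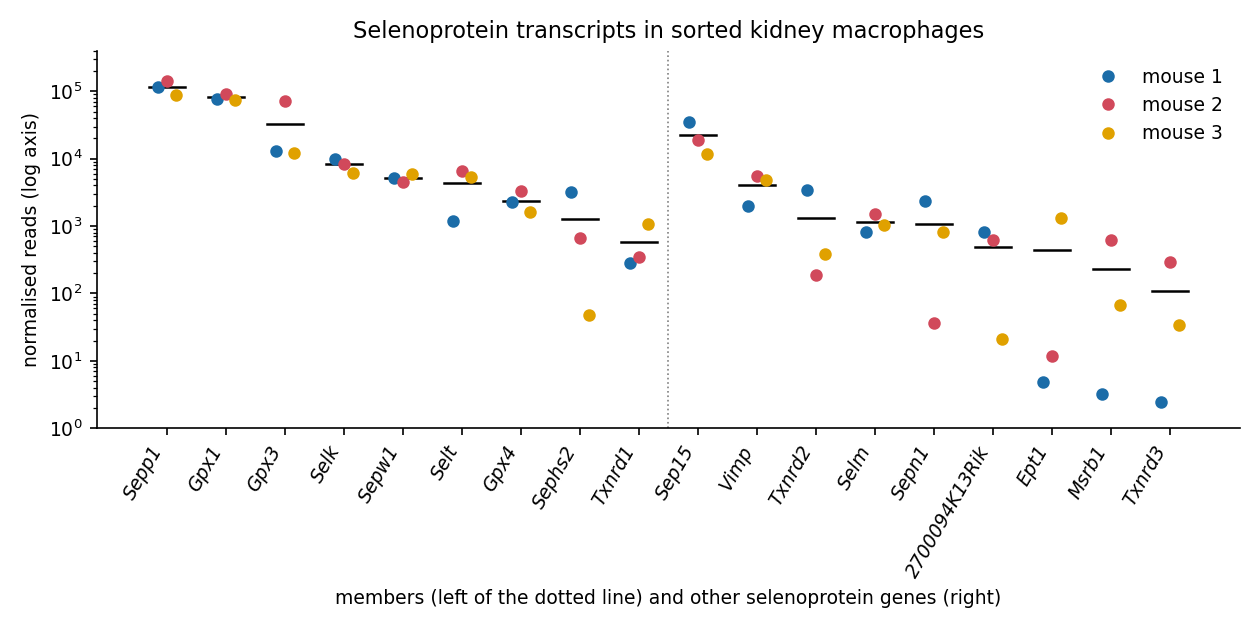
Normalised reads (log axis) of the 9 members, left of the dotted line, and of 9 other selenoprotein genes, right of it, with a dot for each mouse and a bar at the mean of 3. Sepp1, Gpx1 and Sepw1 have dots close together, while Sephs2 in the left part and Txnrd2, 2700094K13Rik, Sepn1, Txnrd3, Msrb1 and Ept1 in the right part are spread over more than an order of magnitude.

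The secreted members come first. Sepp1 (ENSMUSG00000064373.11), which encodes the selenium carrier of plasma, was at 117788, 142016 and 87581 normalised reads (115795 ± 27272). Mouse 2 was highest and mouse 3 lowest, 1.62-fold apart, or 1.84-fold as a share of all reads. Sepp1 alone took 0.328% ± 0.109 of the reads. By mean level it held place 28 over all listed genes and place 20 outside mitochondrial and ribosomal protein genes. The gene at place 19 was Lyz2 (117633 ± 18383), and just outside the limit of 20 stood Tgfbr1 (107145 ± 32715) and Ptprc (96284 ± 30191). On the opposite strand, the annotation has Ccdc152 over 439 of the 2842 exon bases of Sepp1. No strand setting is given in the sources used here, and Ccdc152 was not analysed here, so its part in the Sepp1 value was not tested.

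Gpx3 (ENSMUSG00000018339.11) encodes the secreted glutathione peroxidase of plasma, for which the kidney, above all the proximal tubule, is known as the main source. It was at 13077, 72077 and 12225 normalised reads (32459.5 ± 34312). Mouse 2 stood 5.70-fold above the mean of the other mice, whose values lay close together, and without mouse 2 the mean was 12651. The same ratio was 7.02 for Kap, 5.19 for Slc34a1 and 9.45 for Lrp2, all markers of the proximal tubule. It was below 1 for 9 of 12 macrophage markers (8 of 12 with total reads as library size). Among them were Adgre1 at 0.476 and Csf1r at 0.432. The share of all listed genes with a ratio below 1 is not given here. Relative to Kap in the same library, Gpx3 came to 36.8%, 41.9% and 90.5%, while Sepp1 came to 332%, 82.5% and 648%. The part of tubule RNA in the Gpx3 and Sepp1 values was not tested.

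**Figure D3:**
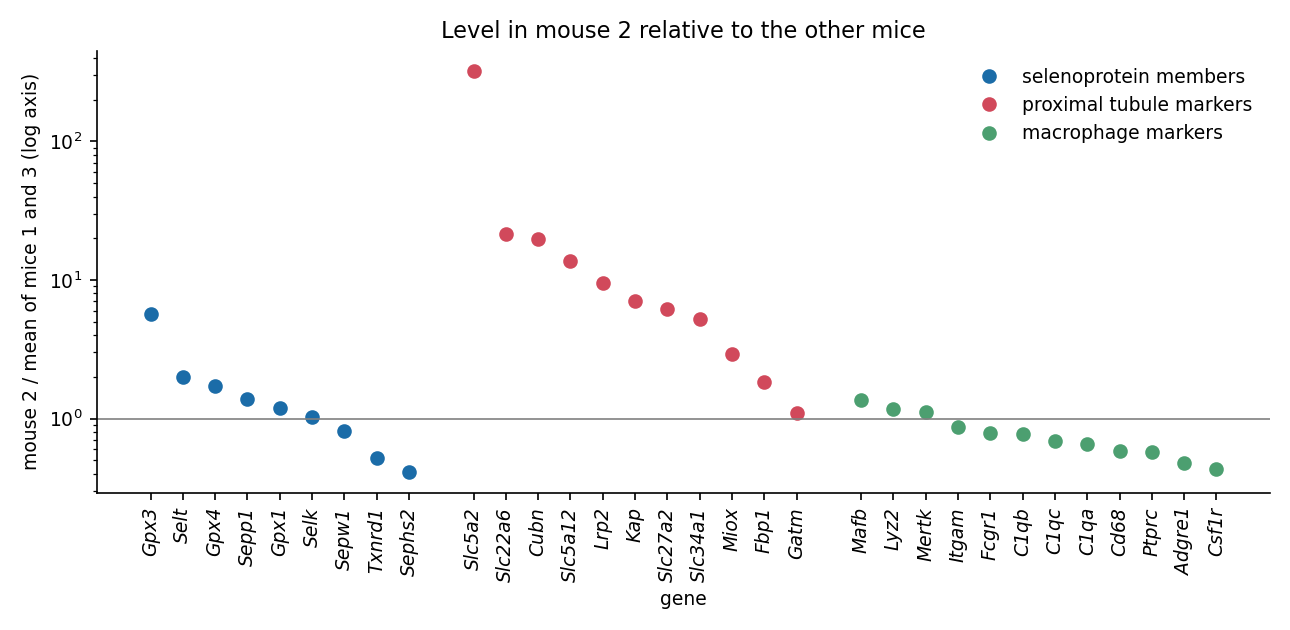
Level in mouse 2 divided by the mean of mice 1 and 3 (log axis) for the 9 members, 11 proximal tubule markers and 12 macrophage markers, with a dot for each gene and a line at a ratio of 1. All 11 tubule markers lie above the line, from Gatm at 1.09 to Slc5a2 at 323. Of 12 macrophage markers, 9 lie below it (8 with total reads as library size), and Gpx3 at 5.70 is the highest member. The share of all listed genes above the line is not given here.

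Among the intracellular peroxidases, Gpx1 (ENSMUSG00000063856.7), the cytosolic enzyme that reduces hydrogen peroxide, was at 77634, 91322 and 75522 normalised reads (81492.5 ± 8578). Mice 1 and 3 nearly coincided and the highest value was 1.21-fold the lowest. This was the smallest fold between mice among the members on the authors' scaling, while as a share of all reads it was 1.54-fold and that of Sepw1, at 1.35-fold, was smaller. Gpx4 (ENSMUSG00000075706.10), which reduces lipid hydroperoxides in membranes and guards against ferroptosis, was at 2240.4, 3297 and 1615 (2384 ± 850.1). A processed pseudogene, Gpx4-ps2, matches the Gpx4 transcript at 99.7% over 762 bases, so reads can map to both and the level of Gpx4 is uncertain. No comparable copy was found for Gpx1, Gpx3 or Sepp1 in the annotated transcripts (at least 90% identity over 100 bases), apart from the Ccdc152 overlap.

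Sepw1 (ENSMUSG00000041571.9), which encodes a small thioredoxin-like protein of the cytosol, was at 5149, 4570 and 6018 normalised reads (5246 ± 729). The 3 mice lay within 1.32-fold of each other. The members of the endoplasmic reticulum were Selk and Selt. Selk (ENSMUSG00000042682.8), a partner of the palmitoyl transferase ZDHHC6 with known roles in calcium signalling of immune cells, was at 10038, 8387 and 6219 (8215 ± 1916). As a share of all reads its order changed, with mouse 2 highest (0.0244%, 0.0266% and 0.0174%). Selt (ENSMUSG00000075700.9), also of the reticulum membrane, was at 1197, 6533 and 5371 (4367 ± 2806), with mouse 1 well below the other mice. The annotation holds pseudogene or non-coding relatives of Selk with 91.9% to 98.3% identity and a pseudogene of Selt with 92.7%, so reads can map to both and these values are uncertain.

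The lowest members were an enzyme of the thioredoxin system and an enzyme of selenium metabolism. Txnrd1 (ENSMUSG00000020250.9), the cytosolic thioredoxin reductase, was at 284, 353 and 1078 normalised reads (571 ± 440), and without mouse 3 its mean was 318. Sephs2 (ENSMUSG00000049091.6) makes selenophosphate, the selenium donor for all selenocysteine, and is itself a selenoprotein. It was at 3163, 655 and 47.9 (1289 ± 1651), so the mice spanned 66.0-fold, and without mouse 1 the mean was 352. A gene model of unknown status, Gm44729, covers 36.4% of the Sephs2 exon on the opposite strand and was at 124, 0.555 and 0 in mice 1, 2 and 3.

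Longer transcripts collect more reads, so genes were ranked per kb of exon. On this scale Gpx1 led with 56553 ± 5953 normalised reads per kb, ahead of Sepp1 with 40744 ± 9596. The name that heads the group therefore holds for reads and not per length. Gpx1 exceeded Sepp1 by 1.27-fold to 1.70-fold in the 3 mice, and the ranges of the mice did not overlap (lowest Gpx1 52409, highest Sepp1 49971). With total reads as library size Gpx1 was still the higher in 3 of 3 mice, but the ranges overlapped: Gpx1 took 0.131%, 0.201% and 0.147% of reads per kb and Sepp1 0.101%, 0.159% and 0.0863%. Next came Gpx3 (17904 ± 18926), Sepw1 (7127 ± 991), Selk (4344 ± 1013), Gpx4 (1383 ± 493), Selt (1271 ± 817), Sephs2 (592 ± 759) and Txnrd1 (80.7 ± 62.1) per kb.

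Of the 8 neighbouring pairs in this order, 3 had ranges that did not overlap: Gpx1 above Sepp1, Sepw1 above Selk and Selk above Gpx4. With total reads as library size 2 pairs were left, since Gpx1 and Sepp1 then overlapped. The order of Sepp1 and Gpx3 held in 3 of 3 mice, but their ranges overlapped, since Gpx3 of mouse 2 (39755.5 per kb) exceeded Sepp1 of mouse 3 (30817 per kb). Gpx3 and Sepw1 changed places in mouse 3, and Gpx4 and Selt did so as well. Sephs2 held place 6 in mouse 1, place 8 in mouse 2 and place 9 in mouse 3. The order of Gpx3 against Sepw1, and every order among Gpx4, Selt, Sephs2 and Txnrd1 between neighbours, thus lay within the spread between mice.

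**Figure D4:**
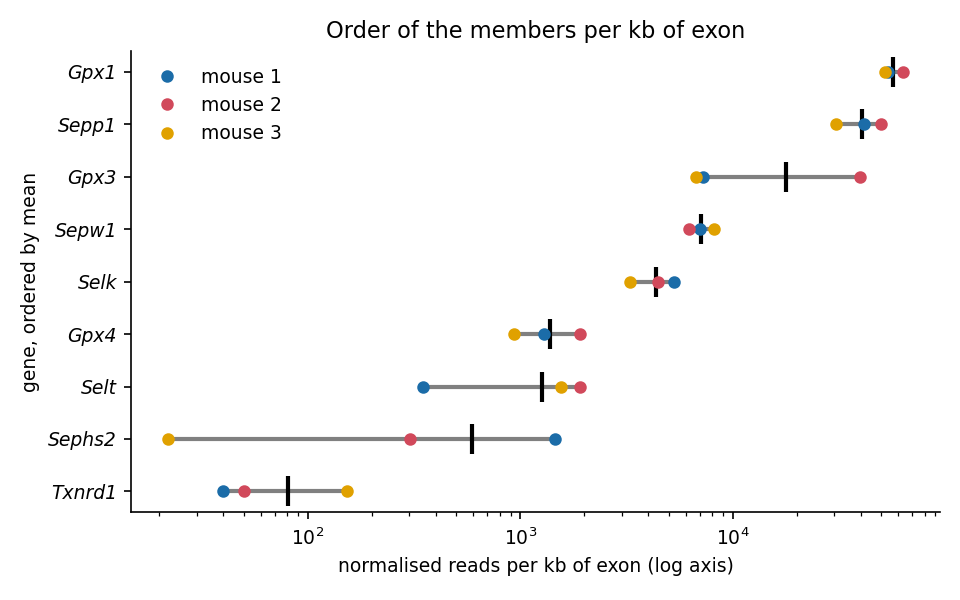
Normalised reads per kb of exon (log axis) of the 9 members, ordered by mean, with a dot for each mouse, a grey line from the lowest to the highest mouse and a black tick at the mean. On the authors' scaling Gpx1 sits to the right of Sepp1 without overlap, which is lost with total reads as library size. Gpx3 is stretched by mouse 2, and Sephs2 spans the widest range.

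Counted by selenocysteine codons, Sepp1 was first again. Its transcripts made up 35.1%, 29.8% and 29.6% of the members' summed level per kb. Weighted by the number of selenocysteine codons, that is 10 for Sepp1 out of 18 over the members, its share was 84.4%, 80.9% and 80.8% (82.0% ± 2.06). Gpx1 followed with 11.0%, 10.3% and 13.7% and Gpx3 with 1.47%, 6.44% and 1.77%. Over all 18 selenoprotein genes of the table, the Sepp1 share was 80.6% ± 1.81. These are codons in mRNA and say nothing of how often they are translated.

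The spread between mice differed among the members. Genes of like level were taken as those within 2-fold of a member's mean, and the range over the 3 mice on the log2(normalised reads + 1) scale was compared with the median range of those genes. The range was 0.27 for Gpx1 beside 0.61, 0.40 for Sepw1 beside 1.69, 0.69 for Selk beside 1.40, 1.03 for Gpx4 beside 2.59 and 1.92 for Txnrd1 beside 6.34. On the authors' scaling these 5 of 9 members varied less than the median gene of like level, which by definition splits such genes evenly. With total reads as library size this held for the other 4 but not for Gpx1, whose range was then 0.62 beside 0.55. It was 2.56 for Gpx3 beside 0.94, 6.01 for Sephs2 beside 3.87, 2.45 for Selt beside 1.82 and 0.70 for Sepp1 beside 0.58. Of the 190 genes of like level, 96.3% had a smaller range than Gpx3, and for Sepp1 the figure was 60.6% of 33 genes. With total reads as library size these figures were 98.8% of 173 genes for Gpx3 and 87.9% of 33 genes for Sepp1. The range of Sepp1 was then 0.88 beside 0.50.

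**Figure D5:**
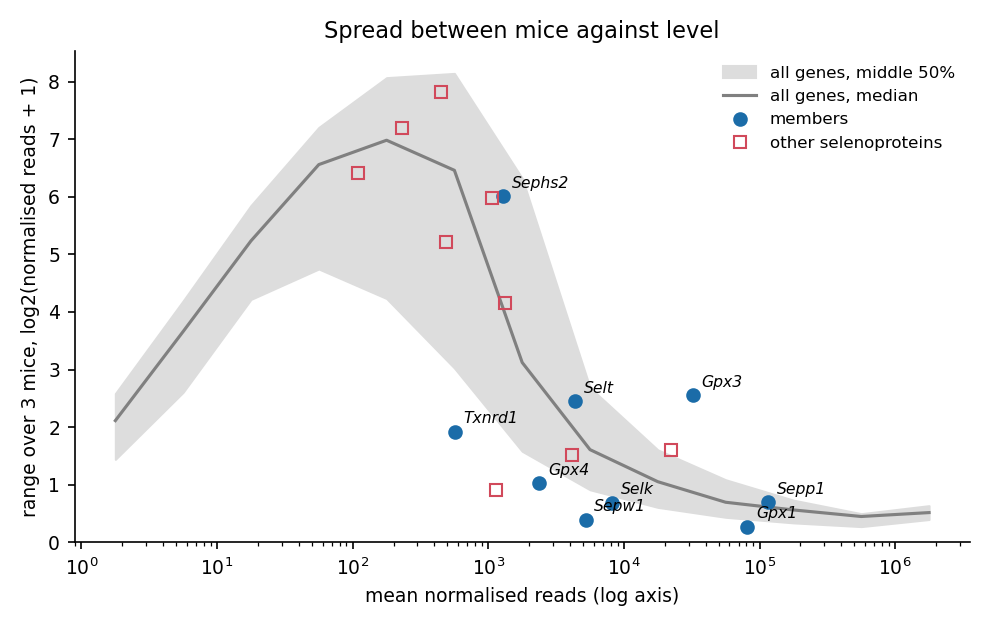
Range over 3 mice of log2(normalised reads + 1) against mean normalised reads (log axis), with filled dots for members, open squares for other selenoprotein genes, a grey line for the median of all genes above 0 in any mouse in bins of level, and a band for their middle 50%. Gpx3 lies above the band at 2.56, and Gpx1, Gpx4, Sepw1, Selk and Txnrd1 lie below it (with total reads as library size, Gpx1 is above the median of its like-level genes).

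The reference annotation has 24 mouse genes with a selenocysteine codon, and 18 of them were in the table. Of the 9 outside the group, 6 reached a level of 10 in all mice, against 44.4% of all genes, and without mouse 1 all 9 did so, against 51.5%. The highest by reads was Sep15, whose symbol the table holds in the form of a date. It encodes a protein of the endoplasmic reticulum tied to glycoprotein folding. Its levels were 35584, 19051 and 11687 normalised reads (22107 ± 12238). Vimp, which encodes selenoprotein S of reticulum-associated degradation, was at 1973, 5624 and 4809.6 (4136 ± 1916). Per kb of exon the means of Sep15 and Vimp were 3799 and 2800. On that scale Sep15 was above Vimp in 1 of 3 mice, and their ranges overlapped. Selm was at 813, 1536 and 1048, and with Sep15 and Vimp it was within 3.04-fold across mice.

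The other 6 were uneven. The mitochondrial thioredoxin reductase Txnrd2 was at 3426, 190.4 and 381, and Txnrd3 was at 2.42, 289.7 and 33.8, where 2.42 is the worth of 3 reads. Sepn1, a reticulum protein tied to muscle disease, was at 2323, 36.1 and 823, and 2700094K13Rik, the nuclear selenoprotein H, at 826, 621 and 21.1. Ept1, an enzyme of phosphatidylethanolamine synthesis, was at 4.84, 11.7 and 1320.1. Msrb1, which reduces oxidised methionine and is the Sepx1 of the group's definition, was at 3.23, 619.9 and 68.4. The fold between the highest and the lowest mouse ran from 18.0 for Txnrd2 to 273 for Ept1. Such spread was common at these levels. Between 40.4% (2700094K13Rik) and 67.7% (Ept1) of the genes of like level had a smaller log2 range. A different mouse was highest from gene to gene: mouse 1 for 3 genes, mouse 2 for 2 and mouse 3 for 1.

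Of 13 genes tied to selenocysteine synthesis, insertion or recycling, 9 reached a level of 10 in all mice, against 44.4% of all genes. A level of 1000 was reached by 3 of them, against 14.7%. The 3 with the highest means were Ncl (1373, 4418 and 5511), a nucleolar protein that also binds SECIS elements, Trnau1ap (4564, 3456 and 1403), which associates with the selenocysteine tRNA, and Secisbp2l (1968, 2127 and 2334), a relative of Secisbp2. Those means are of reads. Per kb of exon the highest were Trnau1ap (1159), Eif4a3 (685) and Ncl (370), and Secisbp2l was at 261. Secisbp2 itself was at 940, 1058 and 2735 normalised reads and was lowest in mouse 1. Eefsec, the dedicated elongation factor, was at 61.3, 28.3 and 29.6. Scly, which recovers selenium from selenocysteine, was at 826 in mouse 2 and at 3.23 and 3.52 in mice 1 and 3.

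Of the receptors that take up selenoprotein P, Lrp2, the megalin of the proximal tubule, was at 1697, 8594 and 122 normalised reads and is one of the tubule markers above. Lrp1 was at 335.5, 98.2 and 8.46. A further receptor, Lrp8, was looked for and was not among the listed genes. Lrp2 was thus highest in the same mouse as Gpx3 and Kap, and the part of tubule RNA in its value was not tested.

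The partners of the members gave a mixed picture. In the list of 9 thioredoxin and glutathione genes, 7 reached a level of 10 in all mice, against 44.4% of all genes, and 4 reached 1000, against 14.7%. The highest means were those of Txnip (12454 ± 5053), the thioredoxin inhibitor, Txn1 (6713 ± 1107), the substrate of Txnrd1, and Txn2 (4524 ± 4058), its mitochondrial counterpart. That order is by reads, and per kb of exon Txn1 (6388) came before Txnip (3988) and Txn2 (1075). In reads, Txn2 was at 3519, 8989 and 1062, and without mouse 2 its mean was 2291, below that of Glrx (3380). Of these 9 genes, 2 were highest in mouse 1, 6 in mouse 2 and 1 in mouse 3. The share of all listed genes highest in mouse 2 is not given here, so the count is a description only. Over all listed genes, 18.9%, 13.2% and 19.8% were at 0 in mice 1, 2 and 3. The 6 included Gclm (224, 2551 and 366) and Gss (51.6, 1170 and 7.05), both for glutathione synthesis. They also included Gsr (25.8, 1574 and 47.2), which reduces oxidised glutathione. Mouse 2 was also the mouse with the highest summed tubule markers, and the part of tubule RNA here was not tested.

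In the NRF2 list, 3 of 5 genes reached a level of 10 in all mice, against 44.4% of all genes, and 1 of 5 reached 1000, against 14.7%. Nfe2l2, the transcription factor of the oxidant response, was at 33290.3, 12629 and 16395. Its targets were lower, with Hmox1 at 3236, 189 and 28.9 and Srxn1 at 24.2, 1053 and 1021, and Nqo1 did not exceed 4.44. Of 6 reticulum partners, 5 reached 10 in all mice, against 44.4% of all genes, and Uggt2 was at 0 in every mouse. By reads, the highest means were those of Derl2 (4723 ± 1366), Zdhhc6 (3560 ± 3540.1) and Derl1 (3508 ± 1865). Per kb of exon Derl1 came first (1054), before Derl2 (587) and Zdhhc6 (430). Zdhhc6 was at 7265, 213 and 3201, and without mouse 1 its mean was 1707, below that of Derl1 (2565). Among cysteine-containing relatives, Msra was at 2448, 962 and 1734 and Msrb2 at 3.23, 510.03 and 1767, Gpx6 was at 8.87 in mouse 1 and 0 in the others, and Gpx8 was at 0 in every mouse. For a gene at 0, the upper limit was the worth of 3 reads, which is 2.42 for mouse 1, 1.66 for mouse 2 and 2.11 for mouse 3, and covers counting error only. Acsl4, which supplies the polyunsaturated lipids that Gpx4 protects, was at 5044, 1699 and 4344, and Lpcat3 at 1.61, 296.9 and 0.705.

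The 3 genes nearest to Sepp1 by Euclidean distance over the 3 mice, on log2(normalised reads per kb + 1), were mt-Nd6 (distance 0.24), Itm2b (0.76) and Fcgr3 (0.78). Per kb, mt-Nd6 was at 45142, 55665 and 27932 beside 41446, 49971 and 30817 for Sepp1, with mouse 2 highest and mouse 3 lowest in both. With 3 samples of a single group, this likeness is one of level more than of pattern.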

How the data were processed

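The deposited table holds a normalised signal per gene and mouse. Reads were counted with HTSeq 0.5.4 and scaled with DESeq 1.18.0 on build mm9 by the authors, per the submitters' processing notes. The aligner, annotation, strand setting and row filter were not found in the sources used here. Per the labels' protocols, kidneys were digested for 30 min and SMART-seq v4 cDNA was used (10 ng).

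After subtraction of 1, the lowest deposited value, 100% of values fell on multiples of the worth of 1 read (within 0.05 of it), and division by that worth gave reads. Amplified reads carry no molecular identifiers.

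Exon lengths (union), selenocysteine codons and overlaps came from GENCODE M21 (GRCm38), joined by identifier for 99.6% of genes. Since that build is not mm9, no coordinates are given. For each gene a complete transcript with the most selenocysteine codons was used. Copies were sought with BLAST 2.17.0. Python 3.11.15, numpy 2.4.6 and pandas 2.3.3 were used, and the read and spread calculations were tested on simulated data.

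The members and lists were chosen with earlier results of these data known. Named were all members, every other selenoprotein and receptor found, and the genes around place 20. Also named were the 3 highest of each pathway list by reads, its genes at 0 in every mouse and the 3 genes nearest to Sepp1. Marker genes and Secisbp2, Eefsec, Scly, Eif4a3, Gclm, Gss, Gsr, Glrx and Nqo1 were chosen after their values were seen. Alternatives were leaving out each mouse, other scalings, lengths, minimums and pseudocounts. The overlap of neighbours and the like-level spread under other scalings were added after seeing the data. Of the marker lists, 1 gene was left out of all counts and sums.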

Additional observations from a re-analysis of the deposited data

How the results depend on the processing

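The summed level of the members was 251819 normalised reads. It was 358885 with size factors computed from these 3 libraries and 379106 with total reads as library size, since both put the libraries on another absolute scale, and between 213123 and 279890.3 with a mouse left out. Without division by length, 3 of the 9 members kept their place in the order (Gpx3, Sephs2 and Txnrd1), Sepp1 came before Gpx1, and the Sepp1 share of selenocysteine codons was 89.5%. With the longest transcript as length all 9 kept their places, and with a mouse left out 7 to 9 did. With a mouse left out, the codon share of Sepp1 ranged from 80.8% to 82.7%, the members' share of reads from 0.555% to 0.803%, and the number of other selenoprotein genes at 10 or more in every mouse from 6 to 9. Minimums of 500 and 2000 left 7 and 5 members, and pseudocounts of 0.1 and 10 left the median log2 range of the members at 1.03 and 1.02. With total reads as library size, 2 in place of 3 neighbouring pairs per kb had no overlap and 5 in place of 4 members had a range above that of like-level genes, and with size factors from these libraries both counts stayed. No paired analysis was possible because there was a single group. The lowest read count of a member in a library was 68 (Sephs2 in mouse 3), and the number of mice limits the precision of every mean.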
